A study of Homo sapiens with 12 samples.

Results

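This comparison set HK-2 cells given a low dose of Kbr for 48 h against vehicle-treated cells of the same time. HK-2 is a human cell line, immortalized from the proximal tubule of the kidney. The members were 6 of the 12 arrays in the series, 3 labelled with Kbr at low dose and 48 h and 3 labelled as the matching control samples. The remaining 6 arrays are the same pair of groups at 24 h, and they enter here as part of the estimate of spread and as values set beside those at 48 h. All 4 groups were grown in the same medium with epidermal growth factor (EGF), hydrocortisone, insulin, transferrin and selenite. Cells were seeded on plates 24 h before treatment and treated near confluence, and controls received the vehicle. What Kbr stands for and its concentration were not stated in the labels used here. The model is a single immortalized line, so the groups hold no spread between donors. Replicates are labelled as biological, but nothing says what was kept apart between them, and p-values then measure only the spread between these samples. Scan dates and batch labels were not among the sources used here.

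Proximal tubule cells reabsorb solutes and clear organic compounds from the blood, which exposes them to reactive chemicals. Electrophiles release the transcription factor NRF2 from its partner KEAP1, and NRF2 then switches on genes for glutathione synthesis and quinone reduction through antioxidant response elements. Unfolded protein in the endoplasmic reticulum (ER) is sensed by PERK, IRE1 and ATF6, which induce chaperones through ER stress elements and, through ATF4, genes for amino acid supply. A polarized epithelium also depends on basement membrane, integrins and junctions.

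Values are deposited log2 expression levels, so a difference of 1 is a 2-fold difference. Each gene is described by the probe set with the highest mean over the 12 arrays, out of 19775 gene symbols. A gene was tested where its log2 value was above 4, taken as the floor of the weak signals, in at least 3 of the 12 arrays. That left 10665 genes tested and 9110 not tested. Rose and fell are used for genes past the test, which is an adjusted p under 0.05 in a limma fit over all tested genes, and errors are standard errors (SE) of that fit with n = 3 arrays per group. Arrays of the same group at 48 h correlated at 0.982 to 0.99 across tested genes. Treatment separated the arrays on the first principal component, which held 48.8% of the variance over the 12 arrays, with scores of 24.86 to 34.5 in 48 h controls and -38.62 to -31.78 in 48 h treated arrays. Replicate 3 of 48 h stood apart from replicates 1 and 2 on the second component (23.7%) in both treatments. It lay at -3.96 against -23.17 and -23.19 in controls and at 2.452 against -22.56 and -23.21 in treated cells. The 24 h arrays lay at 3.143 to 27.88, so replicate 3 was nearer to them than replicates 1 and 2 were. Treated replicate 3 correlated at 0.9863 to 0.9886 with treated 24 h arrays and at 0.982 and 0.9872 with the other treated 48 h arrays. For control replicate 3 the values were 0.9858 to 0.9912 with 24 h controls and 0.9877 and 0.9897 with 48 h controls. As a measure of RNA integrity, ACTB signal at the 3′ control probe set exceeded that at the 5′ set by log2 values of 0.6966 to 1.039 in controls and 0.7792 to 1.073 in treated arrays. The ranges overlapped, but the treated array was the higher in all 3 pairs of equal number (0.875 against 0.7091, 1.073 against 1.039 and 0.7792 against 0.6966). The same difference for GAPDH was -0.1419 to -0.05217 in controls and -0.1522 to -0.07024 in treated arrays. Its part in the results was not tested. Of 25 proximal tubule transport and brush border genes, 18 lay below the floor and 2 were not named on the array, so most defining transporters of the labelled cell type were not measurable here. Keratin, CDH16 and PAX8 signals were present in every array. In bulk RNA, fewer cells of a type and less RNA per cell cannot be told apart.

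The 5 promoter stretches below are shown because their elements belong to the stress pathways whose genes are described next. RefSeq windows of GRCh38.p14, 250 bases before to 50 after the start of a gene, were searched on both strands for letters alone, and 27305 windows were available, 8852 of them for tested genes. Only the 250 bases before the start are printed, 5′ to 3′ on the strand of the gene, with the matched letters in capitals. GCLM, a glutathione synthesis gene, lies on chromosome 1 (chr1:93909431-93909680, minus strand) and holds the antioxidant response letters TGACNNNGC, read on the opposite strand, at -34 to -26. HSPA5 (chr9:125241344-125241593, minus strand) and HSP90B1 (chr12:103930160-103930409, plus strand) encode ER chaperones and hold the ER stress element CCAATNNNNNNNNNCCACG. That element lay at -66 to -48 in HSPA5, and at -194 to -176 and, on the opposite strand, at -89 to -71 in HSP90B1. HERPUD1 (chr16:56931892-56932141, plus strand), of ER-associated degradation, holds the ATF4 and CHOP letters TGATGNAA on the opposite strand at -176 to -169. CHORDC1 (chr11:90223050-90223299, minus strand), a partner of HSP90, holds the heat shock letters GAANNTTC at -205, -60 and -50.
GCLM: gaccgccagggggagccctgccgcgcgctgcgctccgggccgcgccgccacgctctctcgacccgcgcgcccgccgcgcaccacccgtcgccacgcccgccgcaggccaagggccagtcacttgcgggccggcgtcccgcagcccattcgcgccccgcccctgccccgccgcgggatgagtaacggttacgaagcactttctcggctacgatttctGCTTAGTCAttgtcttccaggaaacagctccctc
HSPA5: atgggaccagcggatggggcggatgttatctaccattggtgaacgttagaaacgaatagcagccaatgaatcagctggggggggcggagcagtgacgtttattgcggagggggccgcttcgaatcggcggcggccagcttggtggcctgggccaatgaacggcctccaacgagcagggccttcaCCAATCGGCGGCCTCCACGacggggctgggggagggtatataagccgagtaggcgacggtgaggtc
HSP90B1: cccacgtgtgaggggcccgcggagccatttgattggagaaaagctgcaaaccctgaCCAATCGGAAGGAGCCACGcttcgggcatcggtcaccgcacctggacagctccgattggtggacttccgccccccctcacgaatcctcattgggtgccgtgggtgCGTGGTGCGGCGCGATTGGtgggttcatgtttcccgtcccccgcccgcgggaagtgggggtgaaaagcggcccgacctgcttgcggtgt
HERPUD1: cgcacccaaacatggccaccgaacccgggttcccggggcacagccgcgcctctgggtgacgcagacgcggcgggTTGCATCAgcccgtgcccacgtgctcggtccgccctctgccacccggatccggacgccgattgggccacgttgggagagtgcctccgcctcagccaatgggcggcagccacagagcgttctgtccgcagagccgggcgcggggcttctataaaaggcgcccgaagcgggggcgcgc
CHORDC1: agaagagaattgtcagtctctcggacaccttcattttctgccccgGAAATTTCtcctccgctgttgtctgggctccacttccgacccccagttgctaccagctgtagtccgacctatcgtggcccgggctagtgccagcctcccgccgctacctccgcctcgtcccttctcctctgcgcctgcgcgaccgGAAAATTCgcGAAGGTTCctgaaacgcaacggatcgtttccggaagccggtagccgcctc

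The letters were counted over the lists as a description and are neither a site nor a cause. The ER stress element was in 22 of 27305 windows (0.0806%), in 0.147% of the windows of tested genes and in 6 of the 17 windows of ER chaperone genes (35.3%), which were HSPA5, HSP90B1, CALR, CANX, CRELD2 and ERO1B. TGACNNNGC was in 13.6% of all windows and 15.6% of those of tested genes. It was in 5 of 9 windows of the NRF2 list for glutathione and cystine (55.6%) and in 3 of 12 of that for quinone, heme and iron (25.0%). The share was also 25.0% in the integrated stress response (4 of 16) and amino acid synthesis (2 of 8) lists. It was 21.4% for ER-associated degradation and for aminoacyl-tRNA synthetases, and 17.6%, 15.8% and 14.3% for ER chaperones, mitosis and heat shock. Genes at least 2-fold higher at 48 h held TGACNNNGC in 57 of 354 windows (16.1%) and genes at least 2-fold lower in 78 of 517 (15.1%). Both were near the share of tested genes. TGATGNAA was in 3.67% of all windows, 1.58% of those of tested genes and 5 of 14 windows of aminoacyl-tRNA synthetases (35.7%), namely AARS1, CARS1, IARS1, NARS1 and TARS1. It was in 2 of 16 windows of the integrated stress response list (12.5%) and in 0 of 17 of ER chaperones. The glutathione and cystine list held it in 2 of 9 (22.2%) and amino acid synthesis in 2 of 8 (25.0%). GAANNTTC was in 6.87% of all windows, 4.62% of those of tested genes and 4 of 14 of the heat shock list (28.6%). The cell cycle letters TTTGAA were in 15.4% of all windows, 9.55% of those of tested genes and 12 of 19 of the mitosis list (63.2%). These genes outside the naming rule, CALR, CANX, CRELD2, ERO1B, AARS1, CARS1 and IARS1, were named after their values were seen.

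At 48 h, 2351 genes rose (22% of those tested) and 2213 fell (20.8%). The groups did not overlap in 5429 genes (50.9%), whatever the size of the difference. Rises of at least 2-fold numbered 412 and falls of at least 2-fold 648, and at 4-fold or more there were 37 rises and 90 falls. The median log2 change over all tested genes was -0.0038. Of the 4564 genes past the test, 4534 changed in the same direction in all 3 pairs of arrays with equal replicate number, against 7805 of 10665 tested genes. The pairs differed in size: 751, 505 and 241 genes were at least 2-fold higher, and 892, 743 and 621 at least 2-fold lower, in pairs 1, 2 and 3. Differences across genes correlated at 0.888 between pairs 1 and 2, 0.79 between pairs 1 and 3 and 0.844 between pairs 2 and 3, which is a description over genes that are not independent. Another probe set above the floor went the opposite way in 394 of the 2349 genes past the test that had more than 1 such probe set.

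**Figure D1:**
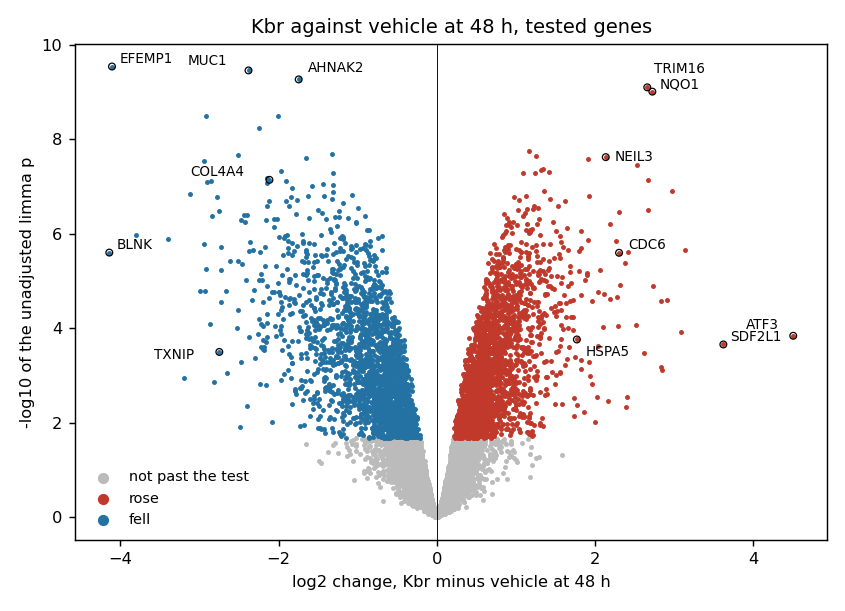
Each point is 1 of the 10665 tested genes, with the log2 change at 48 h on the horizontal axis and the -log10 of the unadjusted limma p on the vertical axis, red for the 2351 genes that rose and blue for the 2213 that fell. Falls of 4-fold or more (90) outnumber rises of that size (37), and TRIM16, NQO1, EFEMP1, MUC1 and AHNAK2 lie at the top.

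Only BLNK, an adaptor protein of B cell receptor signalling, lay above a log2 value of 6 in every control and below 4 in every treated array, and 0 genes did the reverse. Its levels were 7.65, 7.98 and 7.02 in control replicates 1, 2 and 3 and 3.27, 3.88 and 3.08 in treated replicates 1, 2 and 3, the order used for all genes below. The treated values lie at the floor, so the fall has a floor-bound size (log2 change -4.14 ± 0.46 SE, adjusted p = 0.000128). Among falls with both groups well above the floor, MUC1, a membrane mucin of epithelial surfaces, had the smallest p together with EFEMP1. MUC1 read 10.70, 10.69 and 10.87 in controls and 8.32, 8.39 and 8.42 in treated cells. Its groups lay more than 2 log2 units apart with little spread in either, a 5.21-fold fall (log2 change -2.38 ± 0.11 SE, adjusted p = 1.84e-06). The giant scaffold protein AHNAK2 went from 11.98, 11.91 and 12.01 in controls to 10.16, 10.29 and 10.21 in treated cells and fell 3.35-fold (adjusted p = 1.91e-06). HLF, a circadian-type leucine zipper factor, fell 5.69-fold, from 8.91, 8.99 and 8.92 to 6.12, 6.34 and 6.85. DHRS1, a short-chain dehydrogenase, fell 4.02-fold and PDZK1IP1, a small membrane protein of the tubule, 3.16-fold. Among the smallest p-values of rises were DNAJC2, a chaperone of the ribosome, 2.53-fold higher, SLC25A33, a mitochondrial nucleotide carrier, 2.39-fold higher, and the ubiquitin ligase subunit FBXO30, 2.49-fold higher.

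Most genes of the NRF2 list for quinone, heme and iron handling rose. Of 14 tested members, 10 rose and 0 fell, with a median log2 change of 1.04 against -0.0038 over all tested genes. The median difference was 1.11, 1.03 and 0.98 in pairs 1, 2 and 3, and 10 or 11 members rose whichever single array was left out. TRIM16, a ubiquitin ligase, read 7.86, 7.90 and 8.11 in controls and 10.80, 10.64 and 10.42 in treated cells. All treated arrays lay more than 2 log2 units above all controls, a 6.33-fold rise (log2 change 2.66 ± 0.14 SE, adjusted p = 2.08e-06). ME1, the malic enzyme that supplies NADPH, was at 10.58, 10.75 and 10.82 in controls and 11.91, 12.03 and 11.92 in treated cells, 2.36-fold higher (adjusted p = 2.32e-05). PIR, the iron-binding protein pirin, read 8.81, 9.20 and 9.41 and 10.76, 10.63 and 10.70, again without overlap, and rose 2.95-fold. OSGIN1, an oxidative stress-induced growth inhibitor, lay below the floor in all controls, at 3.28, 2.82 and 2.83, and at 5.89, 4.95 and 6.30 in treated cells, so the size of its rise depends on the floor.

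The list for glutathione and cystine divided. Of 14 tested members 6 rose (42.9%) and 4 fell (28.6%), against 22% and 20.8% over all tested genes. The median log2 change was 0.23. The members that rose included both subunits of the enzyme that makes gamma-glutamylcysteine. The modifier subunit GCLM, whose promoter is printed above, read 9.82, 9.53 and 10.13 in controls and 12.33, 12.26 and 12.49 in treated cells. Treated arrays lay close together and all above controls, a 5.80-fold rise (log2 change 2.54 ± 0.19 SE, adjusted p = 2.21e-05). The catalytic subunit GCLC went from 8.86, 8.94 and 8.90 to 11.41, 10.83 and 10.16, with treated replicate 3 the lowest of the treated arrays but above every control, a 3.74-fold rise. In the opposite direction, the last enzyme of the pathway, GSS, fell 1.46-fold (log2 change -0.54), the glutathione transferase GSTA4 fell 2.01-fold and the conjugate exporter ABCC3 fell 2.39-fold. ABCC3 read 9.62, 9.48 and 9.31 in controls and 8.45, 8.33 and 7.86 in treated cells, and its groups did not overlap.

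Of 12 thioredoxin genes 4 rose (33.3%) and 2 fell (16.7%), against 22% and 20.8% over all tested genes. The median log2 change was -0.04, and 4 fell with the replicate block. TXNRD1, the reductase that recharges thioredoxin, read 11.89, 12.02 and 11.77 in controls and 13.96, 13.86 and 13.59 in treated cells, and rose 3.75-fold (adjusted p = 1.82e-05). TXN itself rose 1.77-fold and SRXN1, which repairs oxidized peroxiredoxin, 3.01-fold. TXNIP, the inhibitor of thioredoxin, was at 4.67, 6.74 and 7.18 in controls and 3.43, 3.47 and 3.43 in treated cells. Its treated values lie below the floor and control replicate 1 is the lowest control, so the fall (adjusted p = 0.0021) has a floor-bound size. PRDX2, a peroxiredoxin, fell 1.66-fold. Among antioxidant enzymes outside the NRF2 lists, 1 of 11 rose (9.09%) and 3 fell (27.3%), against 22% and 20.8% over all tested genes. SOD1, superoxide dismutase, rose 1.44-fold. The number of falls was 6 with the replicate number as a block and 5 without treated replicate 3 or after repeated quantile normalization. GPX3, the secreted glutathione peroxidase, was among those that fell, at 13.75, 13.59 and 13.36 in controls and 12.60, 12.62 and 12.65 in treated cells, 1.92-fold lower.

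Of 9 regulators of NRF2, 4 rose and 1 fell. SQSTM1, an autophagy receptor that binds KEAP1, read 12.03, 11.53 and 11.97 in controls and 14.03, 13.48 and 13.49 in treated cells and rose 3.55-fold (adjusted p = 8.3e-05). The small MAF partners of NRF2 rose too, MAFF 2.84-fold from 9.44, 9.40 and 9.59 to 11.19, 11.13 and 10.62, and MAFG 2.69-fold. NFE2L2, which encodes NRF2, rose 1.78-fold (adjusted p = 0.0154), but this call was lost without control replicate 2 (adjusted p = 0.0606) or without treated replicate 1 (0.0596). KEAP1 itself had a log2 change of 0.47 and did not pass (adjusted p = 0.0529), but passed with the replicate block (0.00315), under 5 other settings (0.0347 to 0.0499) and in 3 fits without a single array (0.0354 to 0.0425). NFE2L3, a relative of NRF2, fell 2.48-fold.

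SLC40A1, the iron exporter ferroportin, fell. It read 7.83, 8.04 and 7.38 in controls and 4.22, 5.21 and 5.05 in treated cells, a 7.59-fold fall (log2 change -2.92 ± 0.36 SE, adjusted p = 0.000189). Metallothioneins, small cysteine-rich proteins that bind zinc and copper, fell together. Of 8 tested members 7 fell and 0 rose, with a median log2 change of -0.85 and pair medians of -0.92, -0.80 and -0.86, and 7 fell whichever single array was left out. MT1M read 9.44, 9.05 and 9.46 in controls and 7.55, 7.32 and 7.85 in treated cells, 3.35-fold lower. MT1F fell 2.29-fold and MT2A, the most general family member, 1.73-fold from 14.46, 14.29 and 14.45 to 13.63, 13.50 and 13.69. Probe sets of this family share sequence, so its members are not separate measurements.

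Genes of protein folding in the ER rose, but by amounts that differed widely between replicate pairs. Of 19 tested ER chaperones and folding enzymes, 12 rose and 0 fell, with a median log2 change of 0.89. The median difference was 2.08 in pair 1, 0.91 in pair 2 and -0.003 in pair 3. Treated replicate 1 was the highest and replicate 3 the lowest of the treated arrays in 19 of 19 members, while replicate 3 was lowest in 1146 of all 2351 genes that rose. Treated replicate 1 exceeded every control in 19 members, replicate 2 in 16 and replicate 3 in 8. Over all 10665 tested genes these counts were 4256, 4009 and 4050, so the count in replicate 3 was near the share over all tested genes. The median SD of the members was 0.744 over treated arrays and 0.154 over controls, against 0.18 and 0.166 over all tested genes.

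HSPA5, the main Hsp70 chaperone of the ER lumen, read 13.11, 12.78 and 12.98 in controls and 15.36, 15.03 and 13.78 in treated cells. Treated replicate 3 was the lowest but still above every control, a 3.42-fold rise (log2 change 1.77 ± 0.32 SE, adjusted p = 0.00139). DNAJB11, a J-domain partner of HSPA5, had the same order of arrays, 11.04, 10.98 and 11.26 in controls and 13.40, 12.68 and 11.92 in treated cells, and rose 2.98-fold (adjusted p = 0.00138). HSP90B1, the ER form of HSP90, was at 11.75, 11.84 and 12 in controls and 13.36, 12.73 and 12.17 in treated cells, 1.85-fold higher (adjusted p = 0.00897, and 0.053 in a fit of only the 48 h arrays). DNAJB9, another J-domain partner, read 10.02, 9.75 and 9.53 in controls and 12.48, 12.14 and 10.02 in treated cells, where treated replicate 3 did not exceed the highest control. Its rise (adjusted p = 0.0142) was lost without treated replicate 1 (0.0532), without treated replicate 2 (0.0574) and in a fit of the 48 h arrays only (0.0644). MANF, a secreted ER stress protein, rose 2.64-fold (adjusted p = 0.00945, and 0.0537 in the fit of 48 h arrays). ERO1A, which oxidizes protein disulfide isomerase, rose 1.44-fold on the probe set used, but not on the mean of its probe sets (adjusted p = 0.771).

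The count of ER chaperones that rose depended on single arrays. It was 12 with all arrays, 7 without treated replicate 1, 6 without treated replicate 2 and 14 without treated replicate 3. It was 4 in a fit of only the 48 h arrays, or 7 with the replicate block in that fit. The median log2 change was 0.50 without treated replicate 1 and 1.32 without treated replicate 3. At 24 h the median of the same genes was -0.02. None of the 19 passed the test of a difference between the 48 h and 24 h changes, and HSPA5 had a 24 h change of 0.26 and an adjusted p of 0.165 for that difference.

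**Figure D2:**
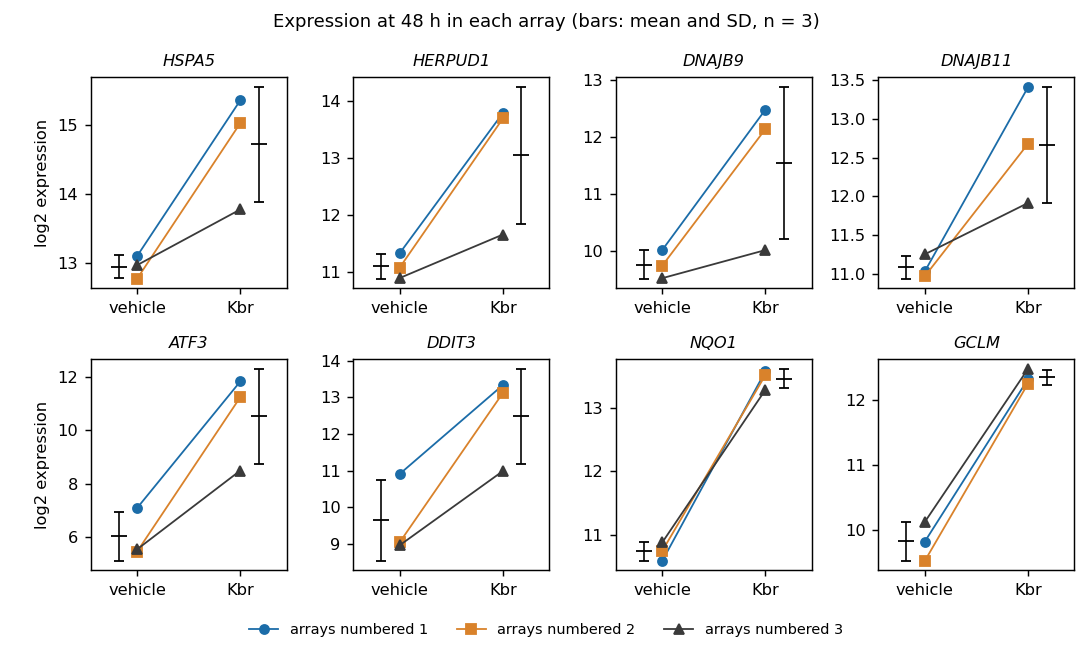
Log2 expression (vertical axis) of 8 stress genes in each 48 h array, vehicle on the left and Kbr on the right, with lines joining arrays of equal number and black bars for the mean and SD (n = 3). Treated replicate 3 lies well below treated replicates 1 and 2 for HSPA5, HERPUD1, DNAJB9, ATF3 and DDIT3, and beside them for NQO1 and GCLM.

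ER-associated degradation and export genes had 7 of 16 rising and 2 falling (median log2 change 0.48), with pair medians of 0.93, 0.29 and -0.007. HERPUD1, a membrane organizer of the degradation complex, read 11.33, 11.07 and 10.89 in controls and 13.78, 13.69 and 11.65 in treated cells. Treated replicate 3 was far below the other treated arrays and little above the highest control, and the gene rose 3.85-fold (log2 change 1.94 ± 0.44 SE, adjusted p = 0.00485). The selenoproteins SELENOS and SELENOK, which serve the same complex, rose 2.01-fold and 2.19-fold. SELENOS read 9.28, 9.56 and 9.59 in controls and 10.69, 10.51 and 10.25 in treated cells. SPCS3, a subunit of the signal peptidase, went the other way, from 12.08, 12.18 and 12.24 to 10.95, 10.79 and 11.21 without overlap, a 2.28-fold fall (adjusted p = 0.000179).

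Among 11 sensors and effectors of the unfolded protein response, 4 rose and 1 fell. EIF2AK3, which encodes the sensor PERK, read 9.36, 9.43 and 9.66 in controls and 10.79, 10.68 and 10.04 in treated cells, 2.03-fold higher (adjusted p = 0.000982). XBP1, whose spliced product is the effector of IRE1, rose 2.17-fold (adjusted p = 0.00897). That call was lost on the mean of its probe sets (0.177) and in the fit of 48 h arrays (0.0523), and the array values used here do not tell its spliced form from the unspliced. MBTPS1, the protease that first cuts ATF6, fell 1.54-fold (adjusted p = 0.000791). The list had 7 rises without treated replicate 3 and 1 in the fit of only 48 h arrays.

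Genes of the integrated stress response, the programme downstream of ATF4, rose for the most part. Of 16 tested members 12 rose and 0 fell, with a median log2 change of 1.10 and pair medians of 1.13, 1.51 and 0.66. Treated replicate 3 was the lowest treated array in 14 of 16 members and exceeded every control in 8, against 12 for replicates 1 and 2 alike. Over all 10665 tested genes, 4256, 4009 and 4050 exceeded every control in treated replicates 1, 2 and 3. The median SD of the members was 0.458 over treated arrays and 0.382 over controls. Control replicate 1 was itself high for several of these genes. CHAC1, which degrades glutathione, read 6.96, 4.58 and 4.20 in controls and 7.31, 7.18 and 6.83 in treated cells, so control replicate 1 reached the treated range. Its rise (adjusted p = 0.0186) was lost without control replicate 2 (0.0699), control replicate 3 (0.0682), treated replicate 1 (0.054) or treated replicate 2 (0.0514). ATF4 itself was 1.54-fold higher, 12.96, 12.78 and 12.67 in controls and 13.44, 13.51 and 13.32 in treated cells, with no overlap (adjusted p = 0.000804). TRIB3, a pseudokinase induced by ATF4, rose 2.29-fold and CEBPB, a leucine zipper factor, 2.01-fold. At 24 h the median change of the list was 0.22, and 0 of its members passed the test of a difference between times.

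Among 12 enzymes of amino acid synthesis 3 rose (25.0%, near the 22% over all tested genes) and 1 fell, with pair medians of 0.61, 0.57 and -0.07, and treated replicate 3 was the lowest treated array in 12 of 12. Without that array 8 rose. CTH, which makes cysteine from cystathionine, read 9.01, 8.06 and 8.08 in controls and 11.91, 11.50 and 9.59 in treated cells, and rose 6.16-fold (adjusted p = 0.00215). CBS, the enzyme before it, went the other way, from 9.45, 9.05 and 8.80 to 8.52, 7.66 and 7.28, and fell 2.42-fold (adjusted p = 0.00516). MTHFD2, of the mitochondrial folate cycle, rose 2.88-fold from 12.06, 11.54 and 11.80 to 13.57, 13.69 and 12.71. ASNS, asparagine synthetase, rose 2.33-fold (adjusted p = 0.0431), a call lost in 10 of the 12 fits without a single array, with 0.124 without control replicate 2 of 48 h, and after repeated quantile normalization (0.0501).

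Of 12 amino acid transporters 4 rose (33.3%). SLC3A2, the heavy chain shared by several exchangers, read 9.63, 8.22 and 8.70 in controls and 12.25, 11.33 and 10.53 in treated cells, all treated arrays above all controls, a 5.74-fold rise (adjusted p = 0.000878). The arginine transporter SLC7A1 rose 2.05-fold (adjusted p = 0.0112, and 0.0575 in the fit of 48 h arrays). Cytosolic tRNA charging enzymes had 9 of 17 rising and 0 falling, with pair medians of 0.62, 0.51 and 0.18. GARS1, for glycine, rose 2.15-fold from 11.42, 10.87 and 11.08 to 12.86, 12.23 and 11.60. TARS1, for threonine, read 11.94, 11.55 and 11.63 in controls and 12.91, 12.43 and 12.35 in treated cells, 1.81-fold higher. WARS1, for tryptophan, rose 1.96-fold.

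Over all genes, 104 had treated replicate 3 at least 2-fold below both other treated arrays, against 17 for replicate 1 and 33 for replicate 2. Of these 104, 38 rose, and 19 of the 38 were on a list. Of those, 7 were ER chaperones and 5 were members of the integrated stress response, among them ATF3 and DDIT3. The others were HERPUD1, XBP1, CTH, ASNS, SLC7A11, the growth factor EREG and the chemokine CCL20. The part that the position of replicate 3 on the second component plays in these values was not tested.

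**Figure D3:**
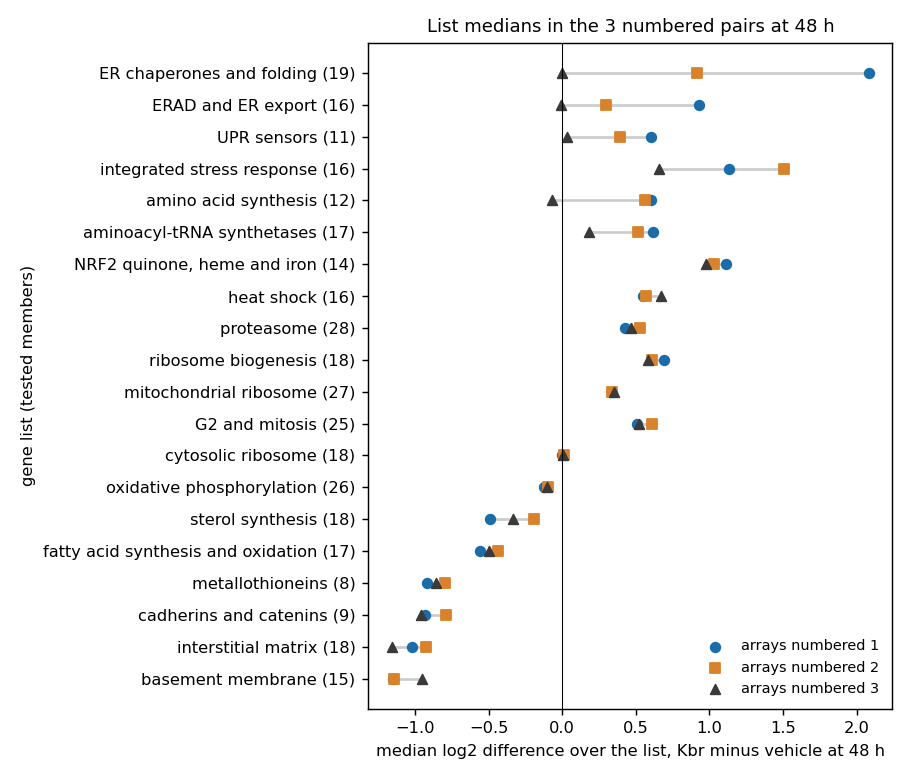
Median log2 difference between treated and control arrays of equal replicate number, for the tested members of 20 gene lists (number of members in brackets), with 1 marker per pair. The ER chaperones spread from 2.08 in pair 1 to -0.003 in pair 3, while heat shock, proteasome, quinone and basement membrane lists have their 3 markers close together.

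Genes of the heat shock list, which also holds HSPD1, HSPE1 and HSF1, rose in every pair by like amounts. Of 16 tested, 11 rose and 0 fell, the median log2 change was 0.56 and pair medians were 0.55, 0.57 and 0.67. Treated replicate 3 was the highest treated array in 12 of 16. HSPH1, a nucleotide exchange factor for Hsp70, read 10.93, 10.84 and 11.15 in controls and 12.33, 12.36 and 12.85 in treated cells, 2.9-fold higher (log2 change 1.54 ± 0.14 SE, adjusted p = 4.71e-05). CHORDC1, whose promoter is printed above, was at 8.80, 8.79 and 9.13 in controls and 10.65, 10.44 and 11.09 in treated cells, and rose 3.53-fold. The Hsp70 relative HSPA4 rose 2.05-fold, the J protein DNAJB4 2.24-fold and HSP90AA1, the inducible HSP90, 1.52-fold. ZFAND2A, a proteasome-associated protein known for its induction by arsenite, stood among the largest rises outside the list, 7.83, 7.78 and 7.63 in controls and 10.79, 10.19 and 9.52 in treated cells (5.35-fold). At 24 h the median change of the heat shock list was 0.59.

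Proteasome subunits rose by less and in larger number. Of 28 tested subunits 23 rose and 0 fell, with a median log2 change of 0.49, and all 28 lay above every control in treated replicate 3. Over all 10665 tested genes, 4050 did so in that array. PSMD14, the deubiquitinase of the lid, read 12.30, 12.46 and 12.53 in controls and 13.11, 13.26 and 13.24 in treated cells, 1.72-fold higher. PSMD12, another lid subunit, rose 2.42-fold and the base ATPase PSMC4 2.02-fold. Fewer subunits passed without control replicate 1 (13), treated replicate 2 (15) or treated replicate 3 (15), and 14 passed in the fit of 48 h arrays. Autophagy and lysosome genes had 7 of 22 rising, 4 without control replicate 1, and 3 falling. ATG101, of the initiating kinase complex, rose 2.21-fold from 9.03, 8.89 and 8.98 to 10.37, 10.03 and 9.94, while the receptor NBR1 fell 1.37-fold.

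Ribosome assembly genes rose and ribosomal protein genes did not pass the test. Of 18 ribosome biogenesis genes 14 rose and 0 fell (median log2 change 0.65), and of 18 cytosolic ribosomal protein genes 0 passed by limma and 1 had an unadjusted p under 0.05, with a median of -0.008 and changes between -0.20 and 0.11. Of these, 1 fell with the replicate block, and 1 rose and 2 fell without a filter. NOP2, a methyltransferase of ribosomal RNA, read 8.64, 8.54 and 8.62 in controls and 9.95, 9.85 and 9.82 in treated cells, 2.42-fold higher (adjusted p = 4.9e-05). DDX21 and NCL, nucleolar proteins, rose 1.87-fold and 1.52-fold. In the mitochondrial ribosome 13 of 27 subunits rose and 2 fell, and 8 rose without control replicate 1 or without control replicate 2. MRPL39 read 9.98, 9.91 and 10.16 in controls and 10.86, 10.84 and 11.04 in treated cells, 1.86-fold higher. Oxidative phosphorylation had 0 rises among 26 genes and 4 falls (15.4%, below the 20.8% over all tested genes). That count was 9 with the replicate block, 8 with an intensity trend, 7 after repeated quantile normalization, 2 without control replicate 1, 2 without control replicate 2, 2 in the fit of 48 h arrays and 1 without treated replicate 2. UQCRC2, of complex III, fell 1.31-fold.

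Mitotic genes rose while genes of DNA replication mostly did not pass. Of 25 G2 and mitosis genes 19 rose and 1 fell, with a median log2 change of 0.57 and pair medians of 0.51, 0.61 and 0.52. CCNB1, cyclin B1, read 11.62, 11.94 and 12.06 in controls and 12.81, 13.01 and 12.98 in treated cells, 2.09-fold higher without overlap (adjusted p = 0.0002). The kinases BUB1 and AURKA rose 1.68-fold and 1.73-fold and the topoisomerase TOP2A 1.49-fold. KIF20A, a kinesin of cytokinesis, was the member that fell (1.33-fold, adjusted p = 0.0161), a call lost without control replicate 3 (0.0562) or treated replicate 1 (0.0567).

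In the DNA replication and G1/S list 3 of 27 rose (11.1%) and 5 fell (18.5%), against 22% and 20.8% over all tested genes. The number of falls was 10 with the replicate block, 8 without treated replicate 3, and 3 either on the mean of probe sets or in the fit of 48 h arrays. CDC6, the loader of the replicative helicase, was the largest rise. It read 8.07, 8.39 and 8.78 in controls and 11.18, 10.90 and 10.08 in treated cells, 4.94-fold higher (log2 change 2.31 ± 0.26 SE, adjusted p = 0.000129). CCND2, cyclin D2, fell 2.77-fold from 10.75, 10.34 and 10.91 to 9.22, 8.98 and 9.40 on the probe set used, but not on the mean of its probe sets (adjusted p = 0.112). POLA1, the catalytic subunit of primase-polymerase alpha, fell 1.68-fold. DNA repair had 6 rises and 6 falls in 24 (25.0% each, near the shares over all tested genes). NEIL3, a glycosylase for oxidized bases, read 7.72, 7.98 and 8.14 in controls and 9.87, 10.23 and 10.16 in treated cells, 4.40-fold higher (adjusted p = 1.82e-05), and RAD51C, of homologous recombination, rose 2.00-fold.

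Targets of p53 went both ways, with 9 of 22 rising (40.9%) and 7 falling (31.8%), against 22% and 20.8% over all tested genes. Their median log2 change was 0.07. GADD45A, a growth arrest gene, read 9.81, 9.03 and 9.53 in controls and 11.34, 11.34 and 10.74 in treated cells, 3.22-fold higher. TP53INP1, a p53-induced nuclear protein, was at 8.29, 8.68 and 8.18 in controls and 6.42, 6.74 and 7.11 in treated cells, 3.09-fold lower, and DDB2, a sensor of ultraviolet damage, fell 2.35-fold. Of 14 apoptosis genes 2 rose (14.3%) and 1 fell (7.14%), below the 22% and 20.8% over all tested genes, or 4 and 3 with the replicate block. PMAIP1, the BH3-only protein NOXA, read 9.56, 9.68 and 10.06 in controls and 11.37, 11.79 and 12.02 in treated cells (3.89-fold higher), and its binding partner MCL1 fell 1.76-fold from 12.17, 12.05 and 11.83 to 11.22, 11.23 and 11.14. Cyclin-dependent kinase inhibitors had 1 rise and 1 fall in 7 (14.3% each, also below the shares over all tested genes). CDKN2A, which encodes p16, did not pass (log2 change -0.08, adjusted p = 0.689).

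Of 18 sterol synthesis genes 8 fell, 2 rose and 8 did not pass (median log2 change -0.32), or 5 fell without control replicate 3. TM7SF2, a sterol reductase, read 9.00, 8.52 and 9.02 in controls and 7.00, 6.32 and 5.85 in treated cells, 5.49-fold lower (log2 change -2.46 ± 0.29 SE, adjusted p = 0.000169). LSS, lanosterol synthase, fell 1.94-fold, and INSIG1, the sterol-sensing anchor, fell 2.08-fold from 12.44, 12.71 and 12.69 to 11, 11.56 and 12.12. Of 17 genes of fatty acid synthesis and oxidation 10 fell and 1 rose. ACADVL, of mitochondrial beta-oxidation, fell 1.93-fold and SCD, the desaturase, 1.39-fold, while the lipid droplet coat PLIN2 rose 1.58-fold.

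Among glycolysis and hypoxia genes 7 of 26 rose (26.9%, near the 22% over all tested genes) and 0 fell, or 12 rose with the replicate block. VEGFA, an angiogenic factor, read 10.58, 9.76 and 9.89 in controls and 12.37, 12.43 and 11.63 in treated cells, 4.18-fold higher (adjusted p = 0.000194). SLC2A1, the glucose transporter GLUT1, rose 2.54-fold from 6.72, 6.67 and 7.13 to 8.44, 8.03 and 8.08. Of 9 genes of the pentose phosphate pathway and NADPH supply, 3 rose and 3 fell (33.3% each). The shares over all tested genes were 22% and 20.8%, and the list median was -0.0086. IDH2 and H6PD, in mitochondria and the ER lumen, fell 2.21-fold and 2.88-fold, and TALDO1, of the pentose phosphate pathway, rose 1.41-fold.

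Basement membrane genes fell. Of 15 tested members 12 fell and 0 rose, the median log2 change was -1.11, pair medians were -1.15, -1.15 and -0.95, and 12 fell whichever single array was left out. LAMA5, a laminin alpha chain, read 10.51, 10.19 and 10.02 in controls and 8.80, 8.88 and 9.03 in treated cells, 2.53-fold lower (log2 change -1.34 ± 0.14 SE, adjusted p = 8.48e-05). No treated array came near a control. COL4A5, of type IV collagen, went from 6.15, 7.00 and 6.49 to 4.84, 4.60 and 4.60, a 3.65-fold fall. The nidogens NID1 and NID2, which link laminin to collagen, fell 1.91-fold and 2.87-fold, and LAMC1, the common laminin gamma chain, 1.85-fold.

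Interstitial matrix genes fell as well, 12 of 18 tested with 0 rising and a median log2 change of -0.96. COL1A1, of type I collagen, read 8.08, 8.13 and 8.28 in controls and 6.37, 6.12 and 5.81 in treated cells, 4.18-fold lower (adjusted p = 7.34e-05). The small proteoglycans DCN and LUM fell 3.22-fold and 3.07-fold. DCN was at 11.97, 11.99 and 11.98 in controls and 10.09, 10.14 and 10.65 in treated cells, with treated replicate 3 the nearest to controls. TNC, tenascin C, fell 2.28-fold and LOXL1, a collagen crosslinker, 2.75-fold. FN1, fibronectin, had a log2 change of -0.11 and did not pass (adjusted p = 0.263), but did without a filter (0.0306).

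Several of these genes are also markers of fibroblasts. Of 11 fibroblast markers, 4 were tested (COL1A1, DCN, LUM and ACTA2), all 4 fell, and PDGFRA, PDGFRB, COL1A2, COL3A1, POSTN, THY1 and FAP lay below the floor. The summed linear level of the tested markers was 5425 to 5720 in controls and 1548 to 2210 in treated cells. Podocyte markers had 3 falls in 6 tested, with a sum of 16730 to 18640 in controls and 12640 to 13780 in treated cells, and NPHS1 and WT1 lay below the floor. For endothelial cells CLDN5 alone was tested. Its linear level, not log2, was 14.46 to 19.09 in controls and 16.43 to 16.97 in treated cells, which is near the floor. Of leukocyte markers BLNK alone was tested, while PECAM1, CDH5, VWF, PTPRC, CD14 and CD68 lay below the floor. Of 12 markers of distal and collecting duct, 0 were tested, 10 because they lay below the floor. The part of other cell types in the matrix results was not tested beyond these values.

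**Figure D4:**
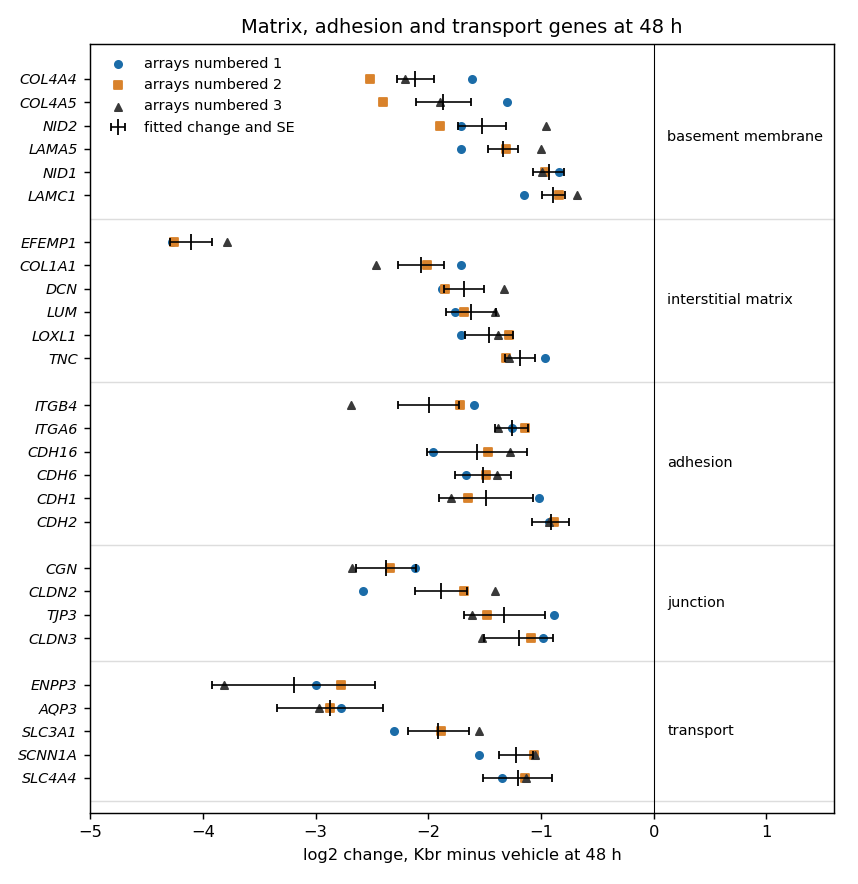
Log2 change at 48 h (horizontal axis) of 27 named genes of basement membrane, interstitial matrix, adhesion, junction and transport, with coloured markers for the 3 pairs of arrays with equal number and a black bar for the fitted change and its SE. All fitted changes lie below 0, from -4.11 for EFEMP1 to -0.89 for LAMC1, and the 3 markers of a gene lie on the same side of 0. The 27 genes were picked as lower ones with their values known, so the shared sign comes from that choice. Members of these lists that rose are not shown.

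Integrins hold epithelium to its matrix, and cadherins hold cells to their neighbours. Among 9 integrin subunits 5 fell, or 3 on the mean of probe sets, and 1 rose, a call lost on that mean, in the fit of 48 h arrays, and without control replicate 1 or 2 or treated replicate 2 or 3. ITGB4, the hemidesmosomal subunit, read 7.14, 6.40 and 7.34 in controls and 5.55, 4.68 and 4.65 in treated cells, 4-fold lower (adjusted p = 0.00034), and its partner ITGA6 fell 2.39-fold from 8.47, 8.67 and 8.80 to 7.21, 7.53 and 7.42. Of 9 cadherins and catenins 7 fell, or 4 without treated replicate 2. CDH6, the cadherin of proximal tubule, fell 2.85-fold from 12.59, 13.06 and 12.31 to 10.93, 11.58 and 10.92. CDH2, N-cadherin, fell 1.88-fold. CDH1, E-cadherin, read 7.01, 7.23 and 7.71 in controls and 5.99, 5.58 and 5.90 in treated cells (adjusted p = 0.0148), a fall lost without control replicate 3 (0.0524) or treated replicate 2 (0.0514). CDH16, the kidney cadherin, fell 2.96-fold, a call lost without control replicate 1 (0.067) or treated replicate 2 (0.0558).

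Of 13 tight junction genes 7 fell and 0 rose, but 3 fell without control replicate 2 or treated replicate 2 and 4 without control replicate 1, without treated replicate 3, without a filter or in the fit of 48 h arrays. CGN, cingulin, fell 5.19-fold (log2 change -2.38, adjusted p = 0.000126), and in each pair of arrays the treated value was lower. Claudins had 3 falls in 7, or 5 with the replicate block, and CLDN3 fell 2.29-fold. Of 9 genes of desmosomes and cornified envelope 2 fell and 7 did not pass (22.2% fell, near the 20.8% over all tested genes), or 4 fell with the replicate block. PPL, periplakin of the cornified envelope, was among the falls with the smallest p-values, with 7.64, 7.63 and 7.70 in controls and 5.04, 4.66 and 4.53 in treated cells (7.54-fold lower, adjusted p = 4.93e-06). GJA1, the gap junction protein connexin 43, read 11.74, 12.18 and 12.18 in controls and 8.83, 9.24 and 9.84 in treated cells, with no overlap and treated replicate 3 the nearest to controls, a 6.64-fold fall. FAT4, a giant cadherin outside the list, fell 6.29-fold. Of the regulators of epithelial to mesenchymal transition, 1 of 8 rose (ZEB1, 1.51-fold) and 3 fell, and VIM, vimentin, did not pass (log2 change -0.24, adjusted p = 0.131) but did with the replicate block (0.0059).

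All 5 tested genes of proximal tubule transport and brush border fell, with a summed linear level of 8849 to 13220 in controls and 5398 to 6813 in treated cells. SLC3A1, of cystine and dibasic amino acid uptake, read 9.85, 9.56 and 8.87 in controls and 7.55, 7.68 and 7.32 in treated cells, 3.77-fold lower (adjusted p = 0.000395). SLC4A4, the basolateral bicarbonate exporter, fell 2.31-fold. The peptidase DPP4 fell 1.41-fold (adjusted p = 0.0457), a call lost without any of 7 single arrays, among them control replicate 2 (0.156) and treated replicate 1 (0.146). Ion and water channel genes had 6 falls, 2 rises and 7 that did not pass in 15, or 2 falls on the mean of probe sets. AQP3, an aquaglyceroporin, read 6.95, 7.15 and 6.83 in controls and 4.17, 4.28 and 3.86 in treated cells, near the floor, a 7.32-fold fall. SCNN1A, of the epithelial sodium channel, fell 2.33-fold. Of 4 tested kidney lineage factors, IRX3 and PPARGC1A fell 2.24-fold and 2.01-fold, while PAX8 had a log2 change of 0.40 and did not pass (adjusted p = 0.128), but passed with the replicate block (0.0163), with the block in the fit of 48 h arrays (0.0202) and without control replicate 3 (0.0469).

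Growth factor genes of the EGF family went both ways. Of 10 EGF receptor signalling genes 5 rose and 3 fell, but 1 fell on the mean of probe sets, and 3 rose in the fit of 48 h arrays, without a filter, or without control replicate 2, control replicate 3, treated replicate 1 or treated replicate 2. HBEGF, a ligand of the receptor, read 5.95, 5.96 and 6.83 in controls and 8.28, 8.21 and 8.01 in treated cells, 3.79-fold higher (adjusted p = 0.00299). EGF was at 4.34, 4.39 and 4.20 in controls and 5.47, 6.20 and 5.70 in treated cells, low in both but without overlap, and rose 2.79-fold. EREG, epiregulin, was at 9.13, 8.09 and 8.42 in controls and 11.69, 10.96 and 8.97 in treated cells, with treated replicate 3 below the highest control. Its adjusted p of 0.0262 became 0.0813 and 0.0642 without control replicates 2 and 3 and 0.0992 and 0.0829 without treated replicates 1 and 2. TGFA fell 1.68-fold on the probe set used (adjusted p = 0.0624 on the mean of its probe sets) and the receptor ERBB2 1.85-fold.

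Feedback regulators of MAP kinases had 5 rises, 3 without control replicate 1, and 3 falls in 13. DUSP5, a nuclear ERK phosphatase, read 9.49, 9.08 and 9.94 in controls and 11.87, 11.56 and 11.66 in treated cells, 4.58-fold higher (adjusted p = 6.78e-05). SPRY1, a sprouty inhibitor, went the other way, 7.36, 6.49 and 6.18 in controls and 4.44, 4.82 and 4.23 in treated cells (4.53-fold lower, adjusted p = 0.00196). Of 14 immediate early genes 7 rose and 2 fell, or 4 fell with the replicate block. JUN rose 3.22-fold from 8.60, 8.63 and 8.94 to 10.58, 10.43 and 10.22, KLF4 3.03-fold and IER3 2.46-fold, while EGR1 fell 1.94-fold from 11.18, 10.82 and 11.13 to 9.70, 10.54 and 10.01 and JUNB 1.82-fold. CCN2, a target of YAP and TGF-beta, rose 2.60-fold from 9.88, 9.38 and 10.00 to 10.82, 11 and 11.59, and the receptor TGFBR2 fell 2.23-fold. In the TGF-beta and YAP targets list 2 of 19 rose (10.5%) and 4 fell (21.1%, near the 20.8% over all tested genes). The counts were 4 and 7 with the replicate block, and 2 fell on the mean of probe sets.

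Of 17 tested inflammatory genes 3 rose (17.6%) and 2 fell (11.8%), shares below the 22% and 20.8% over all tested genes, or 6 and 5 with the replicate block, and 4 fell without treated replicate 3. The chemokine CXCL2 read 9.40, 9.06 and 9.76 in controls and 11.49, 11.08 and 10.27 in treated cells (2.9-fold higher, adjusted p = 0.00203). CCL2, a monocyte chemokine, was at 6.87, 8.49 and 7.01 in controls and 4.25, 5.12 and 5.60 in treated cells, 5.54-fold lower (adjusted p = 0.00301). IL1B fell 3.24-fold, with treated values near the floor. CFB and C1RL, of the complement cascade, fell 6.74-fold and 7.46-fold. Interferon genes had 2 rises (11.8%), 0 without treated replicate 2, and 3 falls (17.6%) in 17, also below the shares over all tested genes. The list median of -0.07 became 0.10 without treated replicate 1.

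Markers of tubular injury fell more often than they rose, with 7 falls and 1 rise in 15, or 3 rises with the replicate block. VCAM1, an adhesion molecule of injured tubule, read 6.84, 6.99 and 7.12 in controls and 3.97, 4.05 and 4.35 in treated cells, at the floor, a 7.25-fold fall (adjusted p = 2.82e-05). CD24, a progenitor and injury marker, fell 2.11-fold from 14.56, 14.72 and 14.67 to 13.13, 13.53 and 14.05, and SOX9, a regeneration factor, 2.21-fold. The marker that rose without the block was CCN2. Of 8 eicosanoid enzymes 4 fell and 1 rose, or 2 fell on the mean of probe sets. HPGD, which inactivates prostaglandins, read 12.99, 12.76 and 12.56 in controls and 10.93, 10.41 and 10.44 in treated cells, 4.51-fold lower (adjusted p = 0.000177). PTGDS, prostaglandin D synthase, fell 4.17-fold from 12.76, 11.81 and 12.01 to 10.33, 9.74 and 10.33.

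The change at 48 h differed from that at 24 h in 15 of 10665 genes (0.141%), 7 with a higher and 8 with a lower value at 48 h. The changes at 24 h and 48 h share no array. The basement membrane collagen COL4A4 had a log2 change of -0.07 at 24 h and -2.12 at 48 h, a difference of -2.05 (adjusted p = 0.0166). Its 48 h levels were 4.73, 5.57 and 5.19 in controls and 3.11, 3.05 and 2.98, below the floor, in treated cells. SGK1, a kinase induced by glucocorticoid that promotes sodium uptake, read 13.83, 13.93 and 13.65 in 48 h controls and 12.25, 12.61 and 12.58 in treated cells. Its log2 change was -0.16 at 24 h and -1.32 at 48 h, a difference of -1.16 (adjusted p = 0.0269). PPP1R1A, a phosphatase inhibitor, had changes of -0.40 and -1.91 (adjusted p = 0.0269 for the difference). In the rising direction, SLF1, of DNA repair at stalled forks, changed by 0.03 at 24 h and 0.83 at 48 h, and EXOG, a mitochondrial nuclease, by 0.36 and 1.35. The pseudogene SEPTIN7P13 and the small RNA SCARNA15 lay at or below the floor in 48 h controls, at 3.11, 3.16 and 2.64 and at 3.97, 4.10 and 3.89.

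This number was not stable. It was 785 with the replicate number as a block. It was 479 without treated replicate 3 of 48 h, 15 without control replicate 3 of 48 h, and 0 to 5 without any other single array. It was 0 without control replicate 3 of 24 h and without treated replicate 2 of 48 h.

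**Figure D5:**
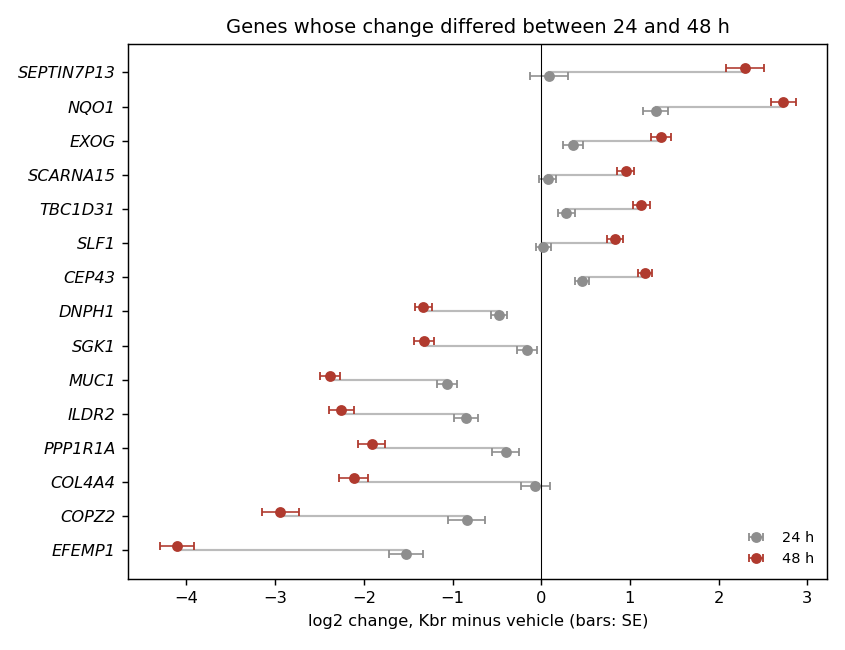
Log2 change (horizontal axis, bars are SE) at 24 h in grey and at 48 h in red for the 15 genes whose change differed between times. COL4A4, SGK1 and SEPTIN7P13 lie near 0 at 24 h and at -2.12, -1.32 and 2.30 at 48 h.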

How the data were processed

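Total RNA of HK-2 cells was labelled with biotin and measured on Affymetrix arrays, per the labels' protocols. The authors deposited log2 expression values, and the submitters' processing notes name GCRMA. This method models background by probe sequence and applies quantile normalization, so weak genes collect at a floor and their folds depend on it. Its version is not given in the sources used here, nor whether other arrays were normalized with these 12. Precision is limited by there being 3 arrays per group.

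Of 54675 probe sets, 41091 had 1 gene symbol, 1801 several and 11721 none, and 62 were array controls. Those with several or none were not used here. Group means were fitted to all 12 arrays with limma 3.58.1 in R 4.3.3, as treated minus control at 48 h, at 24 h, and the difference between both. Two-sided p-values were adjusted over all tested genes (Benjamini-Hochberg). The procedure was tested on simulated data. Those data had independent spread in each array and no effect of the replicate number, so they do not cover the pairing of arrays described below. An exact test of a single gene in 3 against 3 arrays could not go below 0.1. List values are counts and medians, set beside those over all tested genes, with no test of a list. The lists overlap in part.

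Genes named are the largest rises and falls whose arrays did not overlap, the smallest p-values in each direction, the largest SD in a group, and up to 6 members of each list with the smallest p. Members of a list that went against it, 10 genes fixed by name and genes whose change differed between times were added. These rules picked 363 genes, which are counted as named genes below. The text does not give values for all of them, nor for all 10 fixed by name. Some, among them HMOX1 and GDF15, appear nowhere else in the text. Members and lists were chosen with earlier results of these data known. Replicate numbers come from the labels. Between groups, deviations from group means correlated at 0.279 to 0.701 for the 18 pairs of equal number and at -0.454 to -0.0613 for the 36 pairs of unequal number, so the numbers pair the arrays. The alternatives were the replicate block, no filter, a floor of 6, array medians subtracted, quantile normalization repeated, the mean of probe sets, only 48 h arrays with and without the block, an intensity trend with robust variance, and leaving out arrays.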

Additional observations from a re-analysis of the deposited data

Results flagged for a closer look

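For 15 genes a test of the difference itself, the log2 change at 48 h minus that at 24 h in limma, gave an adjusted p under 0.05. Lower values at 48 h were found for 8. EFEMP1, a matrix protein of elastic fibres, had a difference of -2.58 (adjusted p = 0.0129), with a change of -1.52 at 24 h and -4.11 at 48 h. COPZ2, of coatomer vesicles, had -2.10 (0.0269), COL4A4 -2.05 (0.0166), PPP1R1A -1.51 (0.0269), the transmembrane protein ILDR2 -1.40 (0.0269), MUC1 -1.32 (0.0175), SGK1 -1.16 (0.0269) and DNPH1, a nucleotide hydrolase, -0.85 (0.0436). Higher values at 48 h were found for the other 7. The pseudogene SEPTIN7P13 had 2.21 (0.0269), the quinone reductase NQO1 1.44 (0.0269), EXOG 0.99 (0.0472), the small RNA SCARNA15 0.88 (0.0449), the centrosomal genes TBC1D31 and CEP43 0.85 and 0.71 (both 0.0472) and SLF1 0.81 (0.0436). EFEMP1, COPZ2, MUC1 and NQO1 changed in the same direction at both times, while COL4A4, SGK1, SLF1 and SEPTIN7P13 lay near 0 at 24 h. The extent to which the floor sets the values of COL4A4, SEPTIN7P13 and SCARNA15, which lay below or near it in a group, was not tested.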

How the results depend on the processing

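The 4564 genes past the test at 48 h became 3641 to 4491 when 1 array was left out, with 1880 to 2308 higher, 1744 to 2191 lower and 930 to 1182 at least 2-fold different. With the replicate number as a block 6130 passed, and it ended the call of 0 of 312 named genes past the test. Leaving out all arrays numbered 1 or 2, a choice made after seeing the data, left 8 arrays: 2720 and 2482 passed, with 1332 and 1217 higher and 1388 and 1265 lower. The 1060 genes at least 2-fold different became 654 with the mean of probe sets. The 15 genes whose change differed between times became 785 with the block, 32 without a filter, 9 with a floor of 6, 3 with the mean of probe sets, 0 to 479 without 1 array, and 0, 0 and 27 without all arrays numbered 1, 2 and 3. Of the 312 named genes past the test, 130 lost the call under at least 1 setting. Without all arrays numbered 1, 2 and 3 the call was lost for 86, 93 and 26, and without those numbered 2 HSPA5 (adjusted p = 0.0546), DDIT3 (0.101), CTH (0.0672), CBS (0.0833) and HERPUD1 (0.0996) were among them. Under the other settings, 41 lost the call without some single array, 36 in the fit of 48 h arrays, 25 with the mean of probe sets, 24 without a filter, 7 in the fit of 48 h arrays with the block, 5 with array medians subtracted and 2 with quantile normalization repeated. Direction reversed with the mean of probe sets for CFLAR (-0.18), ACACA (0.0404) and DUSP3 (0.24), and the cause was not tested. Weak signal limits genes near the floor, and 3 arrays per group limit all values.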
